A study of Mus musculus with 24 samples.

Results

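The comparison set 3 untreated Arg1 knockout mice (KO) against 3 Arg1 heterozygotes (HE), all at postnatal day 14. Its 6 arrays were chosen by the genotype label and by batch: of the 24 arrays of the series, only those of batch 3 include both groups. No measured value was used in the choice. Neither group received the virus, and the mice of both carry at least 1 altered Arg1 allele. The same batch held 3 virally treated knockouts (TR) and 3 wild types (WT) of the same age, which shared the estimate of the spread between arrays. Batch 1 consisted of 3 KO and 3 WT arrays and batch 2 of 3 TR and 3 HE arrays, with 1 array of each group at postnatal days 13, 14 and 15. RNA came from the frontal lobe, a mixed tissue of neurons, glia and vessels, and each array was labelled as 1 sample. The labels give neither strain, sex and litter of the animals nor the vector and dose of the virus. In batch 3 the sample titles begin with BB for KO replicates 1 and 2, with CC for KO replicate 3 and with EE for all HE, TR and WT samples. What the letters stand for is not stated, so that any origin they mark cannot be told apart from genotype, and KO alone mixes letters.

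Arginase 1, encoded by Arg1, is the enzyme of the last step of the urea cycle, in which arginine yields urea and ornithine and by which the liver disposes of ammonia. Its loss raises arginine in blood and tissues and is known for a movement disorder with spasticity, and the title of the series names impaired myelination of the young brain. A heterozygote keeps 1 working allele and is in general a carrier without disease, so that the comparison sets animals without the enzyme against carriers.

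The deposited table identifies its genes by Ensembl gene ID and does not pair them with names. The gene table used here matched 0 of these IDs. Genes are therefore given by ID, at most 2 in each direction, without a statement on their function. For the same reason the frontal lobe label could not be checked against marker genes, and no sequence is shown. The values are on the log2 scale, where 1 unit is a doubling. Array medians lay between 6.71 and 6.79 over all 24 arrays, and in such a bulk sample fewer cells of a type and less RNA per cell cannot be told apart.

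The KO arrays of batch 3 stood apart from one another more than the arrays of any other group. The root mean square difference between 2 arrays over all genes was 0.280, 0.297 and 0.345 log2 for the 3 pairs of KO arrays, against 0.185, 0.218 and 0.221 for the 3 pairs of HE arrays. The 9 pairs of a KO and an HE array lay between 0.257 and 0.332. Thus the distance from a KO array to an HE array fell in about the same range as the distance between KO arrays. Pairs of a TR and an HE array lay between 0.181 and 0.251, and pairs of an HE and a WT array between 0.209 and 0.270.

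On the first principal component of the 12 arrays, with 24.3% of the variance, KO replicate 1 scored 33.98, KO replicate 2 scored 12.27 and KO replicate 3 scored -1.20, against 0.80, -4.88 and -4.52 for the HE arrays. KO replicate 3 therefore lay among the other groups there. On the second component, with 13.6% of the variance, KO replicate 3 scored 19.55, KO replicate 2 scored 12.41 and KO replicate 1 scored -4.71, against -5.89, -7.20 and -10.28 in HE. Replicate 3 was highest of the 12 arrays on the second component and replicate 1 on the first, and replicate 2 lay between them on both.

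**Figure D1:**
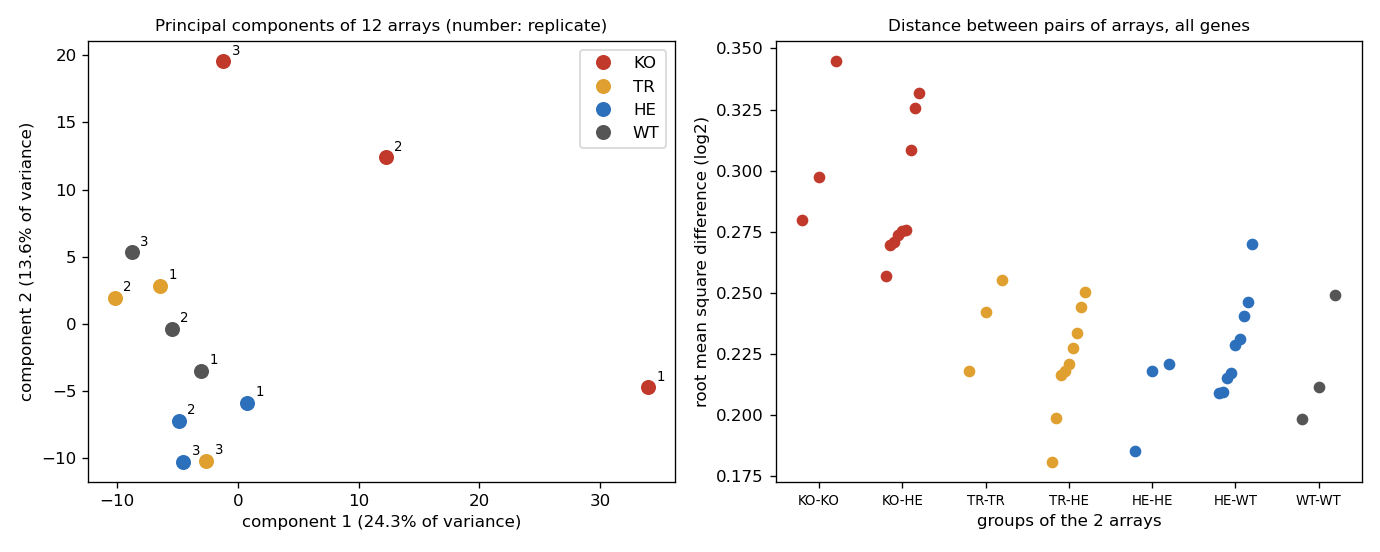
Left: scores of the 12 arrays of batch 3 on the first and second principal component over all genes, with the replicate number beside each point. Right: root mean square difference in log2 between pairs of arrays, by the groups of the pair. The KO arrays are spread along both components, and KO pairs lie at 0.280 to 0.345 log2, above the HE pairs at 0.185 to 0.221.

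A small set of genes split the 12 arrays in a way that the groups do not give. Of 6 genes with a gap over 2 log2, 5 split the arrays into the same 2 sets, with gaps of 3.33 to 5.95 log2 between the sets. The other gene, with a gap of 3.06, was low in KO replicate 1, HE replicate 3 and WT replicate 1 and did not follow that split. In these 5 genes KO replicate 1, all 3 HE arrays and TR replicate 3 formed 1 set. KO replicates 2 and 3, TR replicates 1 and 2 and all WT arrays formed the second set. On the second principal component the first set held the lowest scores, -10.28 to -4.71, against -3.47 to 19.55 in the second set. The part of the split in that component was not tested. Of the 5 genes, 3 were low and 2 were high in the set with KO replicate 1. None of the 5 genes was called between KO and HE. The second set held 2 of the 3 KO arrays and 0 of the 3 HE arrays, so the split was not balanced between KO and HE, and its part in the results was not tested. Without gene names and a label for sex, it was not established whether the sets are the sexes of the animals; if they are, sex is unbalanced between KO and HE, and all HE animals differ in sex from all WT animals.

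Gene by gene, the question of the comparison is what differs in the brain of animals without the enzyme when carriers serve as controls. Values were fitted with limma, and a gene was called at a Benjamini-Hochberg adjusted p under 0.05 over all genes. In all 109 genes were called (0.604% of those tested), 63 higher in KO (0.349%) and 46 lower in KO (0.255%). The 63 genes that rose had a median difference of 0.70 log2, a 1.62-fold change, and ranged from 0.34 to 1.64. The 46 genes that fell had a median of -0.56 log2, a 1.47-fold change, and ranged from -0.36 to -1.28. A difference of 1 log2 or more was reached by 9 of the genes that rose and by 4 of those that fell, while 7 and 16 stayed under 0.5. The last gene called had a limma adjusted p of 0.0491 and a size of 0.34 log2, and the first gene not called had 0.0505 and 0.32.

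The number of calls changed with the arrays that entered the fit. It was 7 with only the 6 KO and HE arrays, 3 higher and 4 lower in KO. That fit has the same differences, 4 residual degrees of freedom in place of 8, and a spread taken from KO and HE alone. The SD was higher in KO than in HE in 82 of the 109 genes (75.2%), against 60.0% of all genes. The number of calls was 82 without KO replicate 1, 103 without KO replicate 2 and 549 without KO replicate 3, the KO sample with title letters of its own. It was 46 without HE replicate 1, 46 without HE replicate 2 and 24 without HE replicate 3. Why these counts differ was not tested. The 109 genes had the same sign of KO minus HE in each of these fits, which was fixed in advance because their KO and HE arrays do not overlap.

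The genes were divided by mean level into 4 classes of about equal number. In the dimmest class, from 2.47 to 4.95 log2, 2 of 4514 genes were called. The next class, up to 6.76 log2, had 19 calls, 16 of them higher and 3 lower in KO. There were 45 calls from there to 8.55 log2 and 43 in the brightest class, of which 20 were higher and 23 lower in KO. The median size of a difference was 0.082 log2 in the dimmest and 0.091 in the brightest class. The median SD between KO arrays was 0.112 in the dimmest and 0.127 in the brightest class, against 0.122 and 0.070 between HE arrays. The spread was thus smaller for bright than for dim genes in HE and not in KO.

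**Figure D2:**
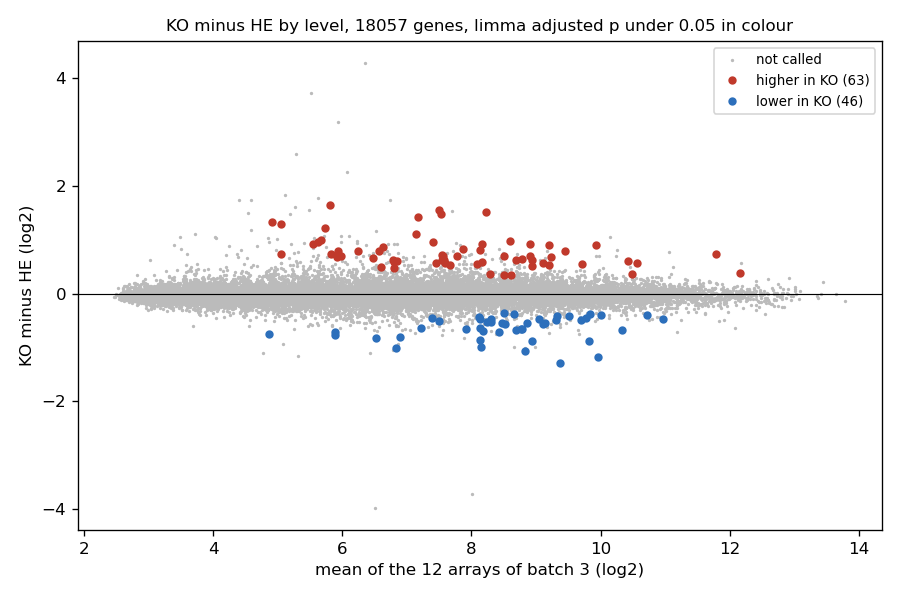
KO minus HE difference in log2 (vertical) against the mean over the 12 arrays of batch 3 in log2 (horizontal), 1 point per gene. Coloured points are the 63 genes called higher and the 46 called lower in KO, and the grey points beyond 1 log2 are genes whose difference did not pass the test.

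ENSMUSG00000105265 had the highest difference among the called genes. It measured 7.23, 7.34 and 6.64 log2 in KO, against 5.13, 6.25 and 4.93 in HE. The lowest KO array lay above the highest HE array, by less than the range within HE. The difference was 1.64 ± 0.345 log2 (SE, 3 arrays per group), 3.11-fold, with a limma adjusted p of 0.0490. The call was lost in 10 of 15 alternative fits, with adjusted p between 0.0158 and 0.401 over all of them. The arrays of TR, at 5.01 to 6.37, spread as widely as those of HE.

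ENSMUSG00000030711 measured 9.30, 8.55 and 8.26 log2 in KO, against 7.16, 7.04 and 7.25 in HE. In batch 3 all KO arrays were at least 1 log2 unit above all HE arrays, and KO replicate 1 was highest. The mean was 8.71 ± 0.536 in KO, against 7.15 ± 0.101 in HE (SD, n = 3 each). The difference of 1.55 ± 0.227 log2 (SE), 2.94-fold, had a limma adjusted p of 0.00736. With only the 6 KO and HE arrays the adjusted p was 0.0577.

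ENSMUSG00000022899 measured 8.44, 8.12 and 9.06 log2 in KO, against 9.76, 9.93 and 9.77 in HE. The KO arrays were all lower, with KO replicate 3 closest to HE. The difference was -1.28 ± 0.191 log2 (SE), 2.43-fold, with a limma adjusted p of 0.00806. It was 0.0845 with only the 6 KO and HE arrays.

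ENSMUSG00000037071 measured 9.51, 9.13 and 8.41 log2 in KO, against 10.19, 10.22 and 10.17 in HE. Here KO replicate 3 was the farthest from HE, and the SD was 0.558 log2 between KO arrays, against 0.025 between HE arrays (n = 3 each). The difference was -1.17 ± 0.183 log2 (SE), 2.26-fold, with a limma adjusted p of 0.00996. With only the 6 KO and HE arrays the SE was 0.227 and the limma adjusted p was 0.151. Without HE replicate 3 the limma adjusted p was 0.0546.

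The targeted gene could not be looked up by name. ENSMUSG00000019987 was the single gene called between HE and WT in batch 3 (0.00554% of genes). It is given for that reason, chosen after its values were seen. Limma gave 543 genes (3.01%) an unadjusted p below 0.05 between HE and WT, where 5% would be reached by chance. The 5 genes with the split described above separated HE from WT without overlap and by more, 3.83 to 6.41 log2, and were not called, with a limma adjusted p of 0.99996, so a single call does not show that HE and WT were otherwise alike. ENSMUSG00000019987 measured 6.98, 6.87 and 7.40 log2 in KO, against 6.41, 6.83 and 6.89 in HE. KO and HE overlapped, with a difference of 0.37 ± 0.198 log2 (SE) and a limma adjusted p of 0.524. The WT arrays read 4.31, 3.94 and 4.80, so that KO and HE alike lay far above WT, by 2.73 and 2.36 log2. In batch 1 the KO minus WT difference of this gene was 3.71 log2 (limma adjusted p 5.5e-08). Its TR minus HE difference was 0.64 log2 in batch 3 (limma unadjusted p 0.00599, adjusted p 0.9998) and 0.75 in batch 2 (limma adjusted p 0.0351). In batch 3 its TR arrays, at 7.22 to 7.45, all lay above its HE arrays. Whether this is the targeted gene, and whether its probes lie within the altered part of a transcript, was not established, so the genotype labels of KO and HE were not checked by expression.

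**Figure D3:**
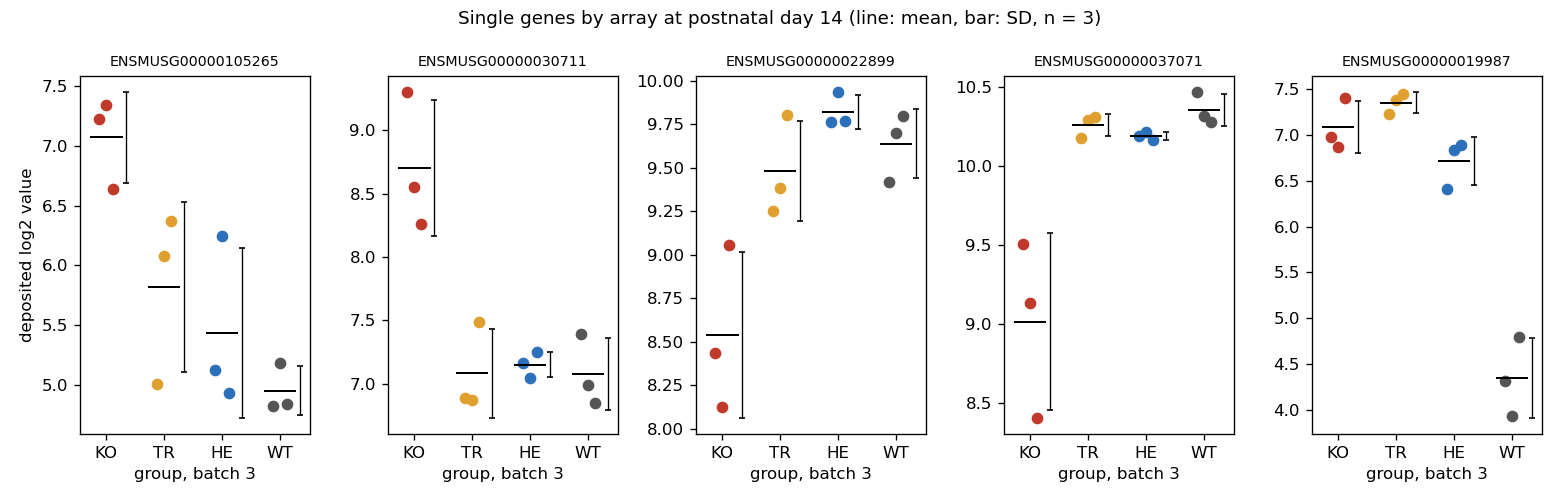
Deposited log2 values of 5 genes on the 12 arrays of batch 3, 1 point per array, with the mean (line) and SD (bar, n = 3) of each group. The KO points lie apart from HE in the first 4 genes, above in the 2 on the left and below in the next 2, whereas in ENSMUSG00000019987 KO overlaps HE and WT lies lower than both.

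In all 109 called genes the KO and HE arrays did not overlap, which was so in 15.4% of all genes (6.73% with KO above HE and 8.70% with KO below). The KO arrays did not contribute evenly to the calls. Among the 63 genes that rose, KO replicate 1 was the array farthest from the HE mean in 36, replicate 2 in 14 and replicate 3 in 13. Among the 46 that fell the numbers were 23, 13 and 10. Their median distance above the HE mean was 0.77 log2 in replicate 1, 0.67 in replicate 2 and 0.66 in replicate 3, and below it -0.68, -0.60 and -0.53. These arrays were used to call the genes, so the values describe the calls and test nothing.

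Most of the largest differences did not pass the test. In all 49 genes had a KO minus HE difference of at least 1 log2, and 36 of them were not called, 28 higher and 8 lower in KO. All 5 genes with the split of the arrays were among the 36, at sizes of 2.60 to 4.28 log2, 3 higher and 2 lower in KO. The median SD between KO arrays was 1.55 log2 in these 36, against 0.14 between HE arrays, and it was 1.44 in KO and 0.13 in HE in the 31 genes without the split. In the 13 called genes of at least 1 log2 it was 0.38 in KO and 0.10 in HE. KO replicate 1 was farthest from HE in 24 of the 36, replicate 2 in 9 and replicate 3 in 3. In 14 genes, all with replicate 1 farthest, the mean of the other two KO arrays was within 0.5 log2 of the HE mean.

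The spread among KO arrays was examined over all genes. The SD over 3 arrays was above 0.5 log2 in 412 genes in KO (2.28%), against 85 genes in HE (0.471%), and in 118 genes in TR and 94 in WT. The median SD was 0.124 in KO and 0.101 in HE, and the KO value was the higher in 60.0% of genes. Of the 412 genes, 196 had KO replicate 1 as the array farthest from the group mean, 160 had replicate 3 and 56 had replicate 2. Replicate 1 was above the other two arrays in 161 of its 196 genes, by a median of 1.22 log2. Replicate 3 was above in 103 of its 160, by a median of 1.07, and replicate 2 in 17 of its 56.

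These 412 genes were chosen for their spread in the KO arrays of batch 3, and other arrays give their spread without that choice. In the KO arrays of batch 1, 29.1% of them had an SD above 0.5, against 7.28% in the WT arrays of batch 1, where both groups cover the same 3 ages. Over all genes the shares were 1.55% and 0.354%. In batch 2 the shares of the 412 genes were 20.9% in TR and 11.4% in HE, and in batch 3 they were 13.1% in TR, 9.71% in HE and 10.9% in WT. Genes that vary in 1 group tend to vary in others, and the difference between these shares was not tested.

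The called genes were also set between the other groups of the batch. The 63 genes that rose differed between TR and HE in batch 3 by a median of -0.038 log2, and the 46 that fell by -0.032. Between HE and WT the medians were -0.0083 and -0.0042. Between KO and WT they were 0.71 and -0.54. Single genes among the 109 ranged from -0.34 to 0.38 between TR and HE and from -0.71 to 0.49 between HE and WT. These extremes reach the size of the smaller called differences, which began at 0.34 log2 and were under 0.5 in 23 of the 109 genes. These comparisons share the HE or KO arrays with the one that chose the genes. None of the 109 genes was called between TR and HE or between HE and WT. Between TR and HE limma called 0 genes of the array (0%), and 436 (2.41%) had an unadjusted p below 0.05. That share was 3.01% between HE and WT and 11.3% between KO and HE, where 5% would be reached by chance. ENSMUSG00000030711 differed by -0.07 ± 0.227 between TR and HE and by 0.07 ± 0.227 between HE and WT (SE). ENSMUSG00000037071 differed by 0.07 ± 0.183 and -0.16 ± 0.183 in the same order. ENSMUSG00000022899 differed by -0.34 ± 0.191 and 0.18 ± 0.191, and ENSMUSG00000105265 by 0.38 ± 0.345 and 0.49 ± 0.345. The limma adjusted p of these 8 differences was 0.9998 or higher. The KO arrays enter the SE of each, so such a p does not show that the groups were alike. In ENSMUSG00000037071 the SD was 0.558 in KO, against 0.025 in HE, 0.070 in TR and 0.099 in WT. Its HE arrays, at 10.17 to 10.22 log2, all lay below its WT arrays, at 10.28 to 10.47. Its TR arrays, at 10.18 to 10.31, overlapped HE.

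Batches 1 and 2 measured the 109 genes on arrays that had no part in choosing them. In batch 1 the 63 genes had a median KO minus WT difference of 0.67 log2, and 62 of them were above 0. The 46 genes had a median of -0.47, and 43 were below 0. Together 105 of 109 (96.3%) kept the sign of KO minus HE, against 58.4% of all genes. In batch 1 limma called 38 of the 63 genes higher in KO, where the share of all genes was 2.25%, and 27 of the 46 lower, where it was 2.81%. None of the 109 genes was called in the opposite direction. The control in batch 1 is WT and not HE, genes are not independent of one another, and earlier results of these data had already shown the KO change of batch 1 again in these KO arrays against WT.

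Array by array, the 63 genes lay above the WT mean of batch 1 by a median of 0.63 log2 at day 13, 0.61 at day 14 and 0.78 at day 15 in KO. The 46 genes lay below it by -0.36, -0.49 and -0.56. Each KO array of batch 1 thus showed both shifts. In the KO arrays of the main comparison both shifts were fixed in advance, because those arrays were used to call the genes. In batch 2, which holds no untreated knockout, TR minus HE had a median of 0.018 log2 in the 63 genes and -0.065 in the 46. The single HE arrays of batch 2 ranged from -0.19 to 0.10 around their own mean in the 63 genes.

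**Figure D4:**
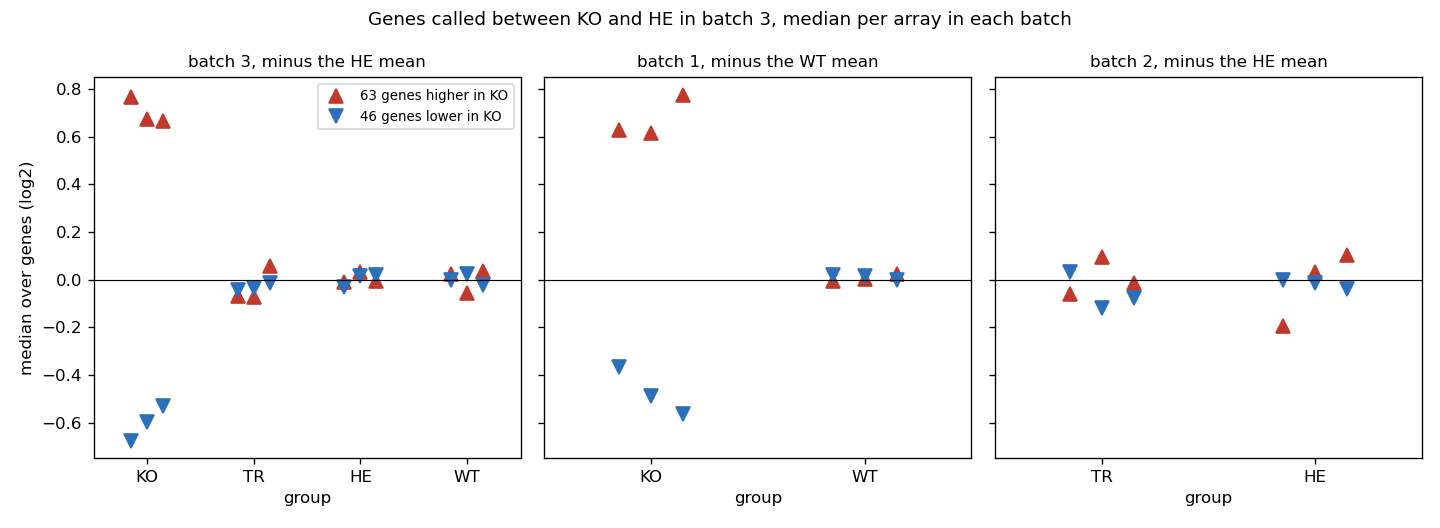
Median over the 63 genes called higher (triangles up) and the 46 called lower (triangles down) in KO against HE, per array, in log2 relative to the HE mean of batch 3, the WT mean of batch 1 and the HE mean of batch 2. The KO and HE arrays of batch 3 chose these genes. The KO arrays of batch 1 lie between 0.61 and 0.78 and between -0.36 and -0.56, and the TR arrays of batches 2 and 3 lie near 0.

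The 4 genes given above differed in how far batch 1 matched. ENSMUSG00000030711 averaged 8.23 ± 0.303 log2 in KO and 6.54 ± 0.065 in WT (SD, n = 3 each), a difference of 1.69 with a limma adjusted p of 5.5e-05. ENSMUSG00000037071 averaged 9.48 ± 0.781 in KO and 10.64 ± 0.033 in WT, a difference of -1.16 with a limma adjusted p of 0.0270. By day it read 10.10, 9.73 and 8.60 in KO, against 10.67, 10.60 and 10.65 in WT. ENSMUSG00000022899 averaged 9.27 ± 0.399 in KO and 9.56 ± 0.059 in WT. Its difference of -0.30 did not pass, at a limma adjusted p of 0.307. By day it read 9.59, 9.40 and 8.82 in KO, against 9.60, 9.60 and 9.50 in WT. A change with age was not tested in either gene. ENSMUSG00000105265 averaged 5.84 ± 1.08 in KO and 5.64 ± 0.808 in WT, a difference of 0.20 with a limma adjusted p of 0.864. In batch 1 it ranged from 4.63 to 6.71 within KO and from 4.72 to 6.24 within WT, so that KO and WT overlapped over most of their range.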

How the data were processed

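Frontal lobe RNA was measured on Affymetrix mouse arrays. The deposited table holds log2 values made by the authors, 1 per Ensembl gene ID and array. They used affy and RMA, per the submitters' processing notes. The map from probes to genes, like the versions, is not given in the sources used here. Batch means differed by a median of 0.0175 log2 between batches 2 and 3, and in a test of batch alone 0% of genes reached an unadjusted p below 0.05, where 5% would by chance, so the values look adjusted for batch. Differences were therefore taken within a batch.

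The 12 arrays of batch 3 were fitted with limma 3.58.1 in R 4.3.3, with 4 group means, an intensity trend and no filter. The residual degrees of freedom were 8, the prior ones 6.37, and all tests two-sided. The contrast was KO minus HE. Batches 1 and 2 were fitted alone in the same way, with no term for age. The code was tested on simulated data with known shifts. All groups had the same spread there, so the simulation does not cover the wider spread among KO arrays. Replicates are separate arrays, numbered by order of deposition, and their number limits the precision.

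The naming rule took the largest and smallest differences among called genes whose arrays do not overlap. Without gene names it was limited to 2 per direction, and the 32 gene lists could not be applied. The choice of comparison and lists was made with earlier results of these data known. In all 16 alternative fits were run.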

Additional observations from a re-analysis of the deposited data

How the results depend on the processing

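The fits differed in the number of calls. The 109 genes had the same sign in all 16 alternatives wherever they were tested, which was mostly fixed in advance. Their KO and HE arrays do not overlap, so leaving out or weighting arrays cannot reverse a sign. Fits that change only the estimate of the spread keep the same differences. Against 109 genes, 63 higher and 46 lower in KO, there were 7 (3 and 4) with only the 6 KO and HE arrays, 357 (169 and 188) with all 24 arrays and additive terms for group and batch, and 224 (110 and 114) with array weights. The additive fit draws on levels across batches that look adjusted. Leaving out 1 array at a time gave 24 to 549 genes, 15 to 255 higher and 9 to 294 lower. The share of calls higher in KO was 57.8%, and it was 47.3% in the additive fit, 49.1% with array weights, 46.4% without KO replicate 3 and 42.9% with only the 6 arrays. The remaining alternatives, namely 1 mean per group and batch over 24 arrays, renewed quantile normalization, median centring, no trend, robust moderation, group weights and leaving out the dimmer 50% of genes, gave 82 to 129 genes. Of the 109 genes 73 were called with 1 mean per group and batch and 93 with group weights. ENSMUSG00000030711 and ENSMUSG00000022899 each lost the call in 1 of 16 alternatives and ENSMUSG00000037071 in 2. The cause of these changes was not tested. No paired analysis was possible because the labels give KO and HE no shared replicate numbers.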
